A study of Mus musculus with 42 samples.

Results

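In fasted mice the arcuate nucleus (ARC) was compared with each of its neighbours in the hypothalamus, namely the paraventricular (PVN), dorsomedial (DMH) and ventromedial (VMH) nuclei. Of the 42 RNA-seq libraries, 20 came from fasted mice, and these were 5 ARC, 6 VMH, 4 DMH and 5 PVN libraries. They were chosen by their labels alone. All came from wild-type male C57/BL6 mice that had gone without food for 24 hours before the brain was taken. The other 22 libraries came from the same 4 nuclei (5 ARC, 6 VMH, 5 DMH and 6 PVN) of mice fed ad libitum, and these were used as a separate check. The nuclei were cut from brain sections by laser capture, so each library holds neurons, glia and vessels together, and more cells of a type cannot be told apart from more RNA per cell. By the study's account all 4 nuclei were cut from each brain, and which libraries belong to 1 brain is not given in the labels, so the libraries of different nuclei are not independent of each other.

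The ARC lies at the base of the third ventricle beside the median eminence and is reached by hormones from the blood. It holds neurons that make agouti-related peptide and neuropeptide Y, which drive feeding, and neurons that make pro-opiomelanocortin, the precursor of α-melanocyte-stimulating hormone, which restrains it. Both types carry receptors for leptin, the fat-derived signal of energy stores, and the first also for ghrelin, the stomach hormone of hunger. Other ARC neurons release growth hormone-releasing hormone or dopamine into the portal vessels of the pituitary.

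Of 37907 genes in the table, 32325 were tested, namely those that reached 1 RPKM (reads per kilobase of transcript and per 1 M reads of the library) in 4 or more of the 20 fasted libraries. Values are RPKM as deposited. A difference is the ARC mean minus the mean of another nucleus in units of log2(RPKM + 1), printed with its standard error (SE). The question was which genes set the fasted ARC apart from every one of its neighbours. A gene was called when its adjusted p was under 0.1 in all 3 comparisons with the same sign, and its margin is the smallest of the 3 absolute differences with their common sign, or 0 where the signs differ. By this rule 138 genes were higher in the fasted ARC than in all 3 other nuclei (0.427% of the genes tested) and 116 were lower (0.359%). Their balance moved with low values, from 153 higher and 97 lower with a pseudocount of 5, through 126 and 124 with one of 0.1, to 125 and 135 with a filter of 5 RPKM. Against the VMH, 1355 genes were higher in the ARC (4.19%) and 1281 lower (3.96%). Against the PVN, 541 were higher (1.67%) and 635 lower (1.96%). The DMH differed least in number, with 326 higher (1.01%) and 422 lower (1.31%), but it also had the fewest libraries. The higher genes had the larger margins: 61 of 138 had a margin of at least 1, against 28 of 116 lower genes, and 10 against 1 had a margin of at least 2 on the log2 scale. The median margin was 0.93 for the higher and -0.71 for the lower genes, beside a median difference of 0 over all genes tested. In 87 of the 138 higher genes all 5 ARC libraries lay above all 15 others, and in 88 of the 116 lower genes all 5 lay below. Over all genes tested these shares were 0.346% and 0.337%. Of the called genes, 132 higher and 113 lower ones were protein coding.

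The dissection labels were checked against genes that mark the other nuclei. The summed RPKM of 6 VMH markers, among them Nr5a1 and Fezf1, was 13.9 to 28.8 in the ARC libraries and 217 to 376 in the VMH libraries. For 6 DMH and lateral markers, among them the peptide genes Npvf, Hcrt and Pmch, it was 8.90 to 41.6 in the ARC and 562 to 770 in the DMH. This list mixes the DMH with the lateral hypothalamus, so its sum is not a check of the DMH label alone. Pmch (mean 355 RPKM) and Hcrt (153) read highest of the 6 in the DMH, and 58.1% of the exon length of Pmch is shared with another gene. Ppp1r17 read 49.7 in the DMH and 47.3 in the PVN (means). For 7 PVN markers, among them Oxt, Avp and Sim1, it was 26.1 to 101 in the ARC and 4761 to 7216 in the PVN. The estimated depth of the ARC libraries (3.83 to 8.76 M reads) lay within that of the other fasted libraries (1.33 to 13.2 M reads), with means of 5.32 ± 1.96 (SD, n = 5) and 5.10 ± 2.77 M reads (n = 15; two-sided exact permutation p = 0.630 on log2 depth). The deposited values hold an added count of 5 reads in the mean library, so that a gene without reads read 1.66 RPKM in the median over genes and differences of genes near that level are understated. Through this added count, 6106 genes without a read in any fasted library passed the filter. They are part of every share and median given over all genes tested.

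The largest margins belonged to the feeding peptides. Agrp (ENSMUSG00000005705, chr8:105566698-105637393 on GRCm38), which encodes agouti-related peptide, an antagonist of the melanocortin receptors, read 351, 403, 341, 597 and 352 RPKM in ARC libraries 1 to 5. Its DMH libraries read 3.66, 5.01, 1.95 and 5.36, its PVN libraries 2.24, 2.79, 6.38, 4.55 and 3.898, and the 6 VMH libraries lay between 2.11 and 6.17 with a median of 2.59. The lowest ARC library thus lay far above the highest of the 15 others. The difference was 6.67 ± 0.26 against the VMH, 6.38 ± 0.29 against the DMH and 6.39 ± 0.27 against the PVN on the log2 scale (SE, largest adjusted p = 1.55e-09). Of the exon length of Agrp as annotated, 11.3% is shared with another gene.

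Npy (ENSMUSG00000029819, chr6:49822710-49829507), which encodes neuropeptide Y and is made by the same neurons, read 1104, 603, 591, 1428 and 841 RPKM in the ARC libraries. It read 17.04, 18.1, 5.601 and 17.7 in the DMH, 18.2, 5.22, 10.4, 6.20 and 10.2 in the PVN and between 3.201 and 13.8 with a median of 7.36 in the VMH. The ARC libraries differed among themselves by more than those of Agrp did, yet no library of another nucleus came near them. The margin of 5.91 was against the DMH (adjusted p = 7.20e-07). ARC library 4 was the highest for both Npy and Agrp.

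Pomc (ENSMUSG00000020660, chr12:3954951-3960642), the gene of pro-opiomelanocortin, read 262, 348, 449.5, 355 and 409.6 RPKM in the ARC libraries. The DMH libraries read 3.902, 3.36, 5.12 and 5.14, and those of the PVN 10.1, 6.93, 3.59, 7.38 and 8.69. The nearest nucleus was the VMH, where it read between 12.9 and 25.6 with a median of 16.7. The difference was 4.29 ± 0.23 against the VMH, 6.08 ± 0.25 against the DMH and 5.49 ± 0.24 against the PVN (largest adjusted p = 3.55e-09). Ghrh (ENSMUSG00000027643, chr2:157329497-157347506), which encodes growth hormone-releasing hormone, read 343, 214, 233, 173 and 245 in the ARC. It read 40.7, 34.8, 75.03 and 61.9 in the DMH, 71.9, 33.2, 24.03, 20.7 and 23.03 in the PVN and between 1.26 and 12.96 with a median of 3.33 in the VMH. The ARC again lay above all others, but Ghrh, unlike the first 3 peptides, was above 20 RPKM in every DMH and PVN library, and its margin was 2.19 (adjusted p = 0.0165).

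**Figure D1:**
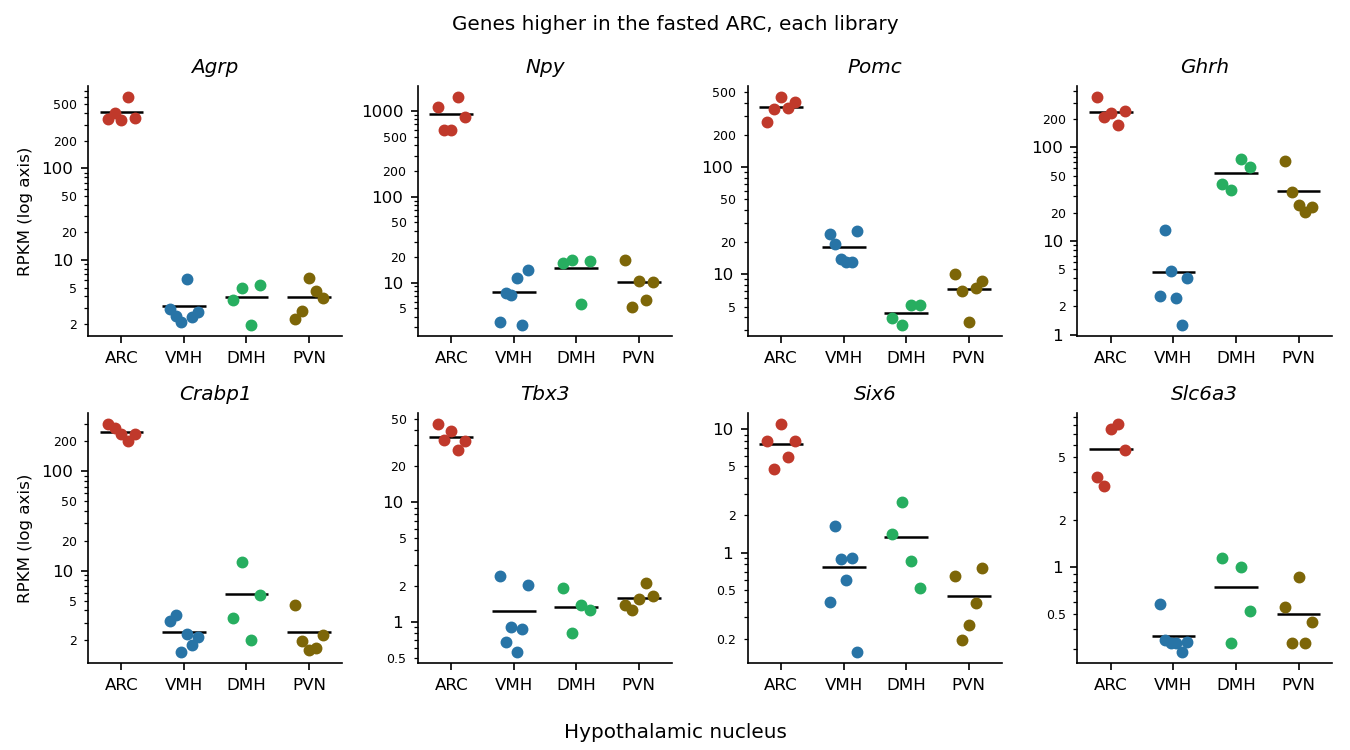
RPKM of 8 genes in each of the 20 fasted libraries, by nucleus, on log axes. Each point is a library and each black line the mean of a nucleus. In all 8 genes the 5 ARC libraries lie above the 15 others.

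Agrp, Npy, Pomc and Ghrh were the only members of a list of 14 arcuate peptide genes that were higher than in all 3 nuclei, of 13 that could be tested. None was lower than in all 3. Over all genes tested, 0.427% were higher and 0.359% lower than in all 3, which are the shares for this and the later lists. The lists were chosen with earlier results of these data known. The median ARC minus mean-of-others difference of the 13 was 1.67, beside 0 for all genes tested, 6106 of which had no read in any fasted library. Each of the other 9 missed the threshold, or was lower, against at least 1 neighbour. Cartpt, which encodes the appetite-reducing peptide CART, read 179.8 to 383 RPKM in the ARC and 113 to 172 in the DMH, a difference of 0.77 ± 0.30 (adjusted p = 0.344), while it exceeded the VMH by 4.14 and the PVN by 1.71 (adjusted p = 3.93e-08 and 0.00168). Sst, the somatostatin gene, was the most abundant of the list at 1675 to 2480 RPKM in the ARC, but the PVN reached 886 to 1994, and the difference from it was 0.53 ± 0.202 (adjusted p = 0.276). Tac2, the neurokinin B gene, read 72.6 to 88.6 in the ARC and 27 to 45.7 in the DMH (difference 1.03 ± 0.39, adjusted p = 0.331). Penk, the proenkephalin gene, was lower in the ARC than in the DMH and the PVN, with differences of -1.49 and -1.68 (adjusted p = 0.00181 and 1.50e-04). Gal, the galanin gene, differed from the VMH by 3.41 (adjusted p = 6.77e-06), and its difference of -1.404 from the DMH missed the threshold (adjusted p = 0.101).

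The promoters of Npy, Pomc and Ghrh are shown as those of called feeding and releasing peptides, together with that of the retinoid-binding gene Crabp1, which had the next largest margin after Agrp and Npy, and that of Adcyap1, a peptide gene that was lower in the ARC. No promoter of Agrp is shown. Each line gives the 100 bases before a RefSeq start on GRCm38.p6, 5′ to 3′ along the gene, in lower case, with capitals for matches on either strand to TATAAA (the core of a TATA box), TGACG (a part of the cyclic AMP response element), GTAAACA (a forkhead site) or TAATTA (a homeodomain site). The motifs were searched separately. The stretches are chr6:49822610-49822709 (+) for Npy, chr12:3954845-3954944 (+) for Pomc, chr2:157337427-157337526 (-) for the downstream of the Ghrh starts, chr9:54764648-54764747 (+) for Crabp1 and chr17:93199068-93199167 (+) for the downstream of the Adcyap1 starts.
Npy: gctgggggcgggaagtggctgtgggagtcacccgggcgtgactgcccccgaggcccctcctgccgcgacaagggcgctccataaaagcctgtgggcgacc
Pomc: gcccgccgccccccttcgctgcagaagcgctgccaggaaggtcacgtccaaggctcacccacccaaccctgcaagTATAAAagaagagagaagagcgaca
Ghrh: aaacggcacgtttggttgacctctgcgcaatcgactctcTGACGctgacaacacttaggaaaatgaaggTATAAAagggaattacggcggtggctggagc
Crabp1: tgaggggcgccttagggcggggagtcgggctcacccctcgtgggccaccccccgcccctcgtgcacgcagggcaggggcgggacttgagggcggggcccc
Adcyap1: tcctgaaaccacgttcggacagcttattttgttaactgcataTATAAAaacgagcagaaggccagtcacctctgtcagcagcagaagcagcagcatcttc

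In these stretches Pomc, Ghrh and Adcyap1 held a TATAAA, Ghrh also held a TGACG, and the letters searched did not occur in those of Npy and Crabp1. The stretches shown for Ghrh and Adcyap1 lie inside the annotated genes. Before the upstream starts of Ghrh and Adcyap1, the 100 bases held a TGACG and no TATAAA. A promoter window was at hand for 112 of the 138 higher and 89 of the 116 lower genes. TATAAA occurred in the 250 bases before a start in 16.1% of the higher genes (18 of 112) and 7.87% of the lower ones (7 of 89), beside 11.8% of the 14730 tested genes with a window and 14.3% of all 27025. TGACG occurred in 25% of the higher and 31.5% of the lower genes, beside 25.2% of those tested and 19.8% of all. GTAAACA occurred in 1 higher and 1 lower gene (0.89% and 1.12%, beside 2.83% of those tested and 3.54% of all), and TAATTA in 5 and 4 (4.46% and 4.49%, beside 4.46% and 5.65%). A match is a description of the letters only.

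Crabp1 (ENSMUSG00000032291, chr9:54764748-54773110) encodes a cytosolic protein that binds retinoic acid. It read 296, 275, 239, 203 and 236 RPKM in the ARC libraries, 3.35, 12.3, 2.02 and 5.69 in the DMH, 4.55, 1.96, 1.61, 1.68 and 2.27 in the PVN and between 1.52 and 3.63 with a median of 2.25 in the VMH. Its margin of 5.41 was against the DMH (adjusted p = 4.66e-08). Of the 11 retinoid handling genes tested, 2 were higher than in all 3 nuclei and 0 were lower, with a median ARC minus mean-of-others difference of 0.69. The second was Cyp26b1, which encodes an enzyme that breaks down retinoic acid, at 1.18 to 2.95 RPKM in the ARC and 0.197 to 0.689 in the 15 others (margin 1.14, adjusted p = 2.12e-04). It had no read in 7 of those 15. Rbp4, a retinol carrier, read 1.78, 7.12, 10.5, 15.6 and 10.2 in the ARC and 0.927 to 5.55 elsewhere. Its smallest difference, 1.298 ± 0.42 against the DMH, had an adjusted p of 0.195.

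Tbx3 (ENSMUSG00000018604, chr5:119670669-119684724), a T-box factor known to maintain the identity of arcuate peptide neurons, read 44.7, 32.9, 39.1, 27.5 and 32.1 RPKM in the ARC. It read 1.897, 0.806, 1.38 and 1.26 in the DMH, 1.39, 1.24, 1.54, 2.12 and 1.63 in the PVN and between 0.557 and 2.39 with a median of 0.887 in the VMH. The 3 differences were alike in size (4.07, 3.96 and 3.799, largest adjusted p = 9.82e-09). Six6, a homeobox factor of hypothalamus and eye, read 8.05, 4.75, 10.9, 5.91 and 8.04 in the ARC and 0.156 to 2.57 in the others (margin 1.899, adjusted p = 6.22e-04). Isl1, a LIM-homeobox factor that acts on Pomc, read 8.49, 19.9, 15.1, 10.9 and 18.02 in the ARC. It was at 3.997 to 8.63 in the DMH, 2.22 to 5.43 in the VMH and only 0.299 to 0.796 in the PVN, so that its lowest ARC library lay inside the range of the DMH. Its margin was 1.06 (adjusted p = 0.041), and its call was lost with a pseudocount of 0.1 (adjusted p = 0.106) and without ARC library 2 or 5 or DMH library 3 (up to 0.143). Prdm12 read 5.86, 1.04, 6.17, 5.56 and 5.69 in the ARC, with library 2 within the range of the other nuclei (0.336 to 1.82, 7 of 15 with no read) and the other 4 above it (margin 1.596, adjusted p = 0.0147). With a filter of 5 RPKM the calls of Six6 and Prdm12 were lost (adjusted p = 0.449 and 0.995). Tbx3, Six6, Isl1 and Prdm12 were the called members of 16 arcuate and mediobasal transcription factors, with 0 lower and a median difference of 1.12. Against the VMH and the PVN 13 and 12 of the 16 were higher, against the DMH 6, and Hmx2 and Hmx3 were lower than in the DMH, with differences of -0.80 and -0.698 (adjusted p = 0.0392 and 0.00238). Over all genes tested, 4.19%, 1.67% and 1.01% were higher than in the VMH, PVN and DMH, and 1.31% were lower than in the DMH.

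Nr5a2, a nuclear receptor of liver and pancreas, was outside these lists and read 3.25, 7.802, 8.94, 5.56 and 11.7 RPKM in the ARC. VMH library 2, at 5.99, and PVN library 1, at 4.75, lay within the ARC range. The DMH libraries held 0.4897 to 0.783. The margin was 1.83 (adjusted p = 0.0361), and the call was lost with a filter of 5 RPKM (adjusted p = 0.158) and without PVN library 2 (0.1).

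Of 27 hormone and peptide receptor genes tested, 8 were higher in the fasted ARC than in all 3 nuclei and 1, the cannabinoid receptor gene Cnr1, was lower. The median ARC minus mean-of-others difference of the list was 0.83. Lepr (ENSMUSG00000057722, chr4:101717404-101815352), the leptin receptor gene, read 14.01, 9.03, 5.799, 9.34 and 7.25 RPKM in the ARC. It read 2.30, 1.42, 1.92 and 2.52 in the DMH, 0.856, 0.563, 0.482, 0.5799 and 0.694 in the PVN and between 1.07 and 3.23 with a median of 2.63 in the VMH. The ARC libraries did not overlap with any other nucleus, and the PVN was the lowest. The difference was 1.54 ± 0.19 against the VMH, 1.69 ± 0.21 against the DMH and 2.58 ± 0.202 against the PVN (largest adjusted p = 2.71e-04).

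Ghsr (ENSMUSG00000051136, chr3:27371351-27378010), the ghrelin receptor gene, read 17.5, 8.45, 17.4, 14.4 and 12.2 RPKM in the ARC. It read 2.07, 1.17, 2.46 and 2.08 in the DMH, 1.15, 2.12, 2.94, 1.48 and 1.78 in the PVN and between 0.884 and 1.75 with a median of 1.11 in the VMH. Its margin of 2.33 was the largest of the receptor list (adjusted p = 7.74e-06). Ghr, the growth hormone receptor gene, read 23.8, 19.01, 19.9, 26.2 and 16.7 in the ARC, 9.08, 14.2, 14.3, 14.03 and 11.6 in the PVN, 5.25 to 8.61 in the VMH and 6.32 to 6.66 in the DMH. The PVN was the nearest nucleus and set its margin of 0.696 (adjusted p = 0.00935). Prlr, the prolactin receptor gene, read 11.9 to 18.0 in the ARC and 5.07 to 9.603 elsewhere (margin 0.82, adjusted p = 7.47e-05). Esr1, which encodes estrogen receptor α, read 5.37 to 7.58 and 0.579 to 1.80 (margin 1.49, adjusted p = 2.14e-05).

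All 3 neuropeptide Y receptor genes of the list were called, although each overlapped with a library of another nucleus. Npy1r read 26.1, 28.1, 26.2, 23.4 and 30.8 RPKM in the ARC, and the VMH held between 9.45 and 25.6 with a median of 12.1, where library 2 alone reached the ARC (margin 1.0, adjusted p = 0.012). Npy2r, the presynaptic receptor of these neurons, read 14.2, 21.5, 26.5, 23.5 and 33.6 in the ARC, with 1 VMH and 1 PVN library above its lowest value (margin 1.36, adjusted p = 0.0627). The Npy2r call was lost on leaving out any of 11 single libraries (ARC 2 to 5, DMH 2 to 4 and PVN 2 to 5), with margins of 1.23 to 1.39 in those fits. Npy5r read 2.75, 5.84, 5.13, 4.94 and 11.6 and 0.571 to 4.33 elsewhere (margin 1.14, adjusted p = 0.0308). Npy1r and Npy5r lie side by side on chromosome 8.

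**Figure D2:**
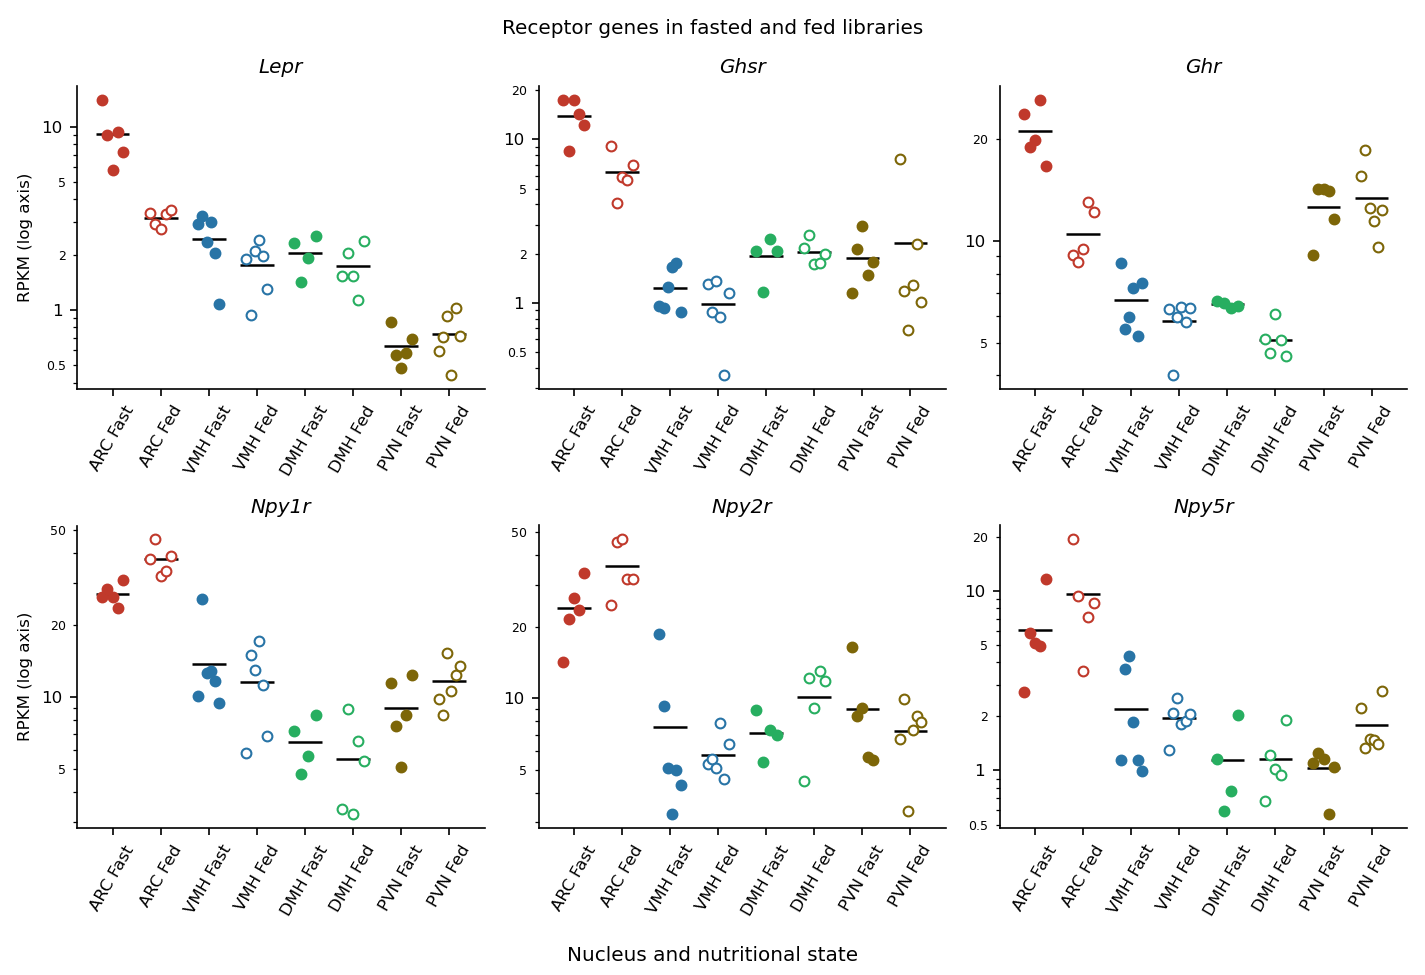
RPKM of 6 receptor genes in all 42 libraries on log axes, with filled points for fasted and open points for fed libraries and black lines for group means. Lepr and Ghr of the fasted ARC lie above all other libraries shown except, for Ghr, 1 fed PVN library at 18.6 RPKM.

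Several receptors known for energy balance missed the threshold against a neighbour. Mc4r, the melanocortin 4 receptor gene, read 0.761 to 5.31 RPKM in the ARC and 2.32 to 8.01 in the PVN (difference -0.61 ± 0.405, adjusted p = 0.707). Insr, the insulin receptor gene, read 11.9 to 23.03 in the ARC and 9.13 to 19.7 elsewhere. Mc3r was at 5.42 to 13.7 in the ARC and at 6.46 to 12.3 in the VMH, a difference of 0.055 ± 0.27 (adjusted p = 1), and higher than in the DMH and PVN by 1.54 and 2.44 (adjusted p = 0.0109 and 4.11e-05). Rxfp1, the relaxin receptor gene, which the list did not hold, had a larger margin than any receptor on it. It read 26.6, 12.04, 10.6, 12.9 and 10.5 in the ARC and 0.3895 to 2.21 in the others (margin 2.83, adjusted p = 7.56e-06).

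Downstream of leptin and insulin, 2 of 10 genes tested were higher and 0 were lower, with a median difference of 0.24. Irs4, an insulin receptor substrate, read 117, 122, 129, 118 and 139 RPKM in the ARC and 25.6 to 55.9 in the 15 others (margin 1.41, adjusted p = 7.56e-06). Stat3, the transcription factor that leptin activates, read 11.2, 15.5, 14.7, 12.7 and 15.3 in the ARC and 7.21 to 12.8 in the PVN (margin 0.52, adjusted p = 0.0764), and its call was lost on leaving out any of 7 single libraries (ARC 2, 3 or 5, or PVN 2 to 5). Foxo1, a factor that insulin restrains, read 20.1 to 33.2 in the ARC, above all 15 others (5.03 to 17.8), but its difference of 0.96 ± 0.27 from the DMH had an adjusted p of 0.107.

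Of 7 genes of dopamine neurons, 2 were higher and 0 lower than in all 3 nuclei, with a median difference of 1.29. Slc6a3, the dopamine transporter gene, read 3.75, 3.27, 7.53, 8.08 and 5.51 RPKM in the ARC and 0.286 to 1.13 in the others, of which 5 of 15 had no read (margin 1.89, adjusted p = 4.05e-05). Nr4a2, a nuclear receptor needed by dopamine neurons, read 4.96, 4.68, 4.53, 3.27 and 4.93 in the ARC and 0.485 to 2.72 in the others (margin 0.89, adjusted p = 0.0126). Th, which encodes the rate-limiting enzyme of dopamine synthesis, did not separate the ARC from the DMH. It read 19.2 to 28.5 RPKM in the ARC, 15.99 to 29.2 in the DMH and 12.8 to 16.1 in the PVN, and the difference from the DMH was 0.18 ± 0.19 (adjusted p = 0.955).

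Among the remaining higher genes, Serpina3n, a serine protease inhibitor, read 136, 134, 77.97, 83.6 and 103 RPKM in the ARC and 5.62 to 34.9 in the others (margin 2.13, adjusted p = 1.01e-04). Corin, a membrane protease, read 3.91, 4.18, 13.7, 4.59 and 4.52, with ARC library 3 far above the other 4, and 0.199 to 1.69 elsewhere, where 4 of 15 libraries had no read (margin 2.03, adjusted p = 1.69e-04). Shisal2b read 8.61 to 21.7 in the ARC and 0.796 to 3.44 elsewhere (margin 1.88, adjusted p = 8.34e-04). Gpc4, a cell-surface proteoglycan, read 15.03 to 35.03 and 1.23 to 8.27 (margin 1.73, adjusted p = 0.00886). D330045A20Rik varied most of these 5, with ARC libraries at 26.1, 7.61, 13.5, 2.74 and 3.73, and 1 DMH library at 3.45 lay above the lowest of them (margin 1.77, adjusted p = 0.0554). Its call was lost on leaving out ARC library 3 or any of DMH libraries 1 to 3.

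The genes that were lower in the fasted ARC included synaptic proteins, a neuropeptide and transmitter receptors. Cbln1 (ENSMUSG00000031654, chr8:87468405-87472609), a secreted protein that organizes synapses, read 1.77, 5.76, 2.503, 14.3 and 7.21 RPKM in the ARC. It read 33.8, 24.3, 20.8 and 22.7 in the DMH, 22.3, 24.6, 43.2, 35.8 and 30.6 in the PVN and between 114 and 179.7 with a median of 136 in the VMH. All 5 ARC libraries lay below all others, although they spread widely, and its margin of -2.098 was the largest among lower genes (adjusted p = 0.00536).

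Adcyap1 (ENSMUSG00000024256, chr17:93199017-93206537), which encodes the peptide PACAP, read 3.67, 3.22, 3.91, 1.88 and 3.05 RPKM in the ARC. It read 15.3, 12.2, 11.2 and 11.4 in the DMH, 19.6, 21.1, 16.7, 13.3 and 11.5 in the PVN and between 53.5 and 90.3 with a median of 77.9 in the VMH. It is one of the VMH markers, and its margin of -1.72 was against the DMH (adjusted p = 1.13e-04). Nr2f2, a nuclear receptor of the COUP family, read 0.591, 1.04, 0.683, 0.884 and 1.36 in the ARC, 2.91 to 5.38 in the PVN, 12.6 to 18.2 in the DMH and 20.2 to 32.8 in the VMH, so that no pair of nuclei overlapped (margin -1.49, adjusted p = 7.08e-06). Cnr1, the cannabinoid receptor 1 gene, read 3.52, 7.55, 6.097, 4.14 and 5.04 in the ARC and 12.9 to 65.8 elsewhere (margin -1.34, adjusted p = 5.07e-04). Chrna4, a nicotinic receptor subunit, read 0.595 to 1.78 and 3.05 to 41.99 (margin -1.53, adjusted p = 0.00527, and 0.107 with a pseudocount of 5).

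Of the other leading lower genes, Vstm2a read 4.599 to 17.2 RPKM in the ARC and 27.5 to 52.04 elsewhere, Lypd1, which acts on nicotinic receptors, 1.91 to 5.78 and 13.2 to 38.6, and Rgs8, a regulator of G-protein signalling, 2.48 to 4.01 and 4.85 to 22.2. Their margins were -1.61, -1.58 and -1.404 (adjusted p = 6.77e-04, 4.16e-04 and 4.38e-04). Pcp4l1 read 6.17 to 13.1 and 14.2 to 43.4 (margin -1.42, adjusted p = 0.0101). Vstm2b read 2.13, 5.66, 3.57, 4.47 and 9.48 in the ARC, and its highest ARC library lay above the lowest of the others, at 8.51 (margin -1.46, adjusted p = 0.0425). The Vstm2b call was lost without ARC library 3 or DMH library 2 or 4 (adjusted p up to 0.127).

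**Figure D3:**
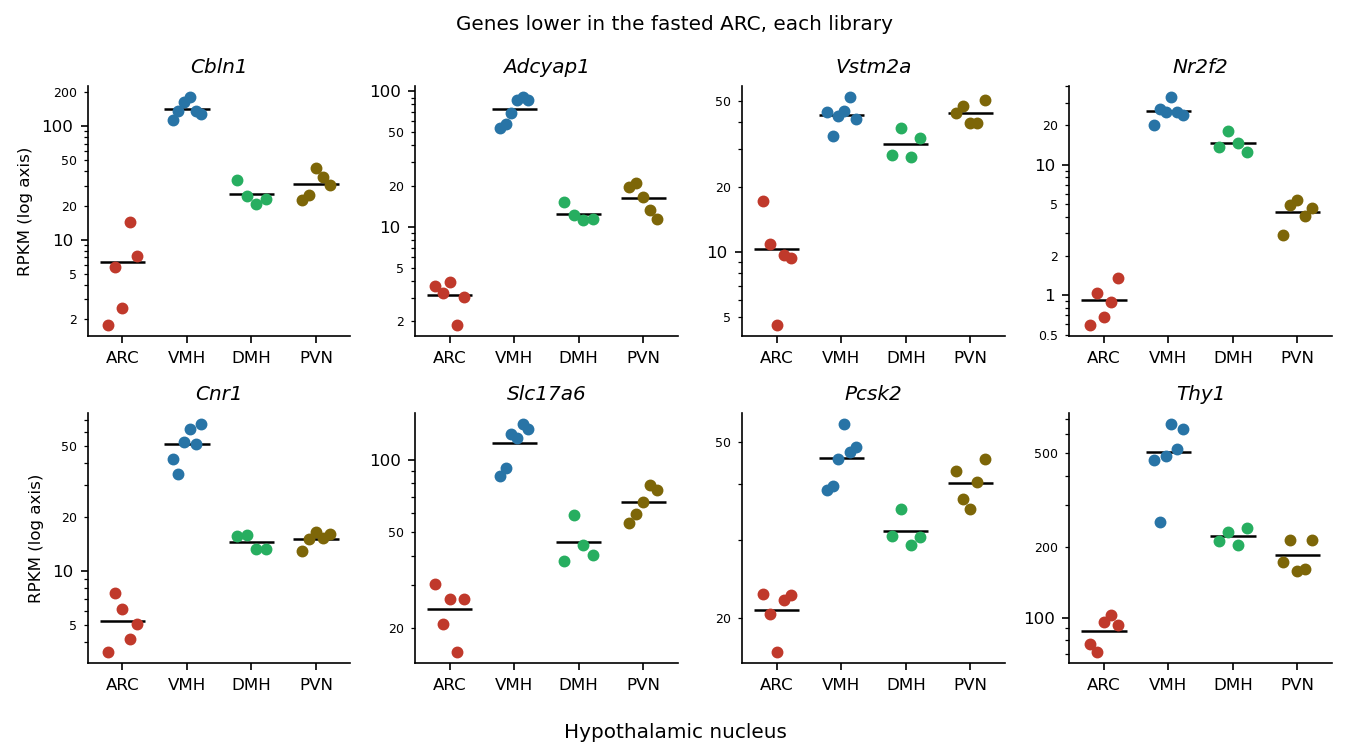
RPKM of 8 genes that were lower in the fasted ARC, in each of the 20 fasted libraries by nucleus, on log axes. Each point is a library and each black line the mean of a nucleus, and in all 8 genes the 5 ARC libraries lie below the 15 others.

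Of 7 GABA and glutamate genes, 0 were higher and 1 was lower than in all 3 nuclei. The lower one was Slc17a6, the vesicular glutamate transporter gene, which read 30.5, 20.7, 26.2, 15.8 and 26.4 RPKM in the ARC, 38.1 to 59.3 in the DMH, 54.8 to 78.5 in the PVN and 85.9 to 141 in the VMH (margin -0.91, adjusted p = 0.0211). Gad1, which makes GABA, read 21.4 to 30.6 in the ARC, 23.2 to 28.1 in the DMH, 1.87 to 4.12 in the PVN and 0.906 to 5.54 in the VMH. Its difference was 3.27 against the VMH and 2.85 against the PVN (adjusted p = 2.21e-07 and 2.83e-06) but -0.0075 ± 0.28 against the DMH (adjusted p = 1). Of 11 genes of prohormone processing and secretory granules, 0 were higher and 1 was lower, with a median difference of 0.12. That gene was Pcsk2, the proprotein convertase 2, at 22.6, 20.4, 16.7, 21.96 and 22.5 in the ARC and 29.2 to 54.7 elsewhere (margin -0.57, adjusted p = 0.00826). Pcsk1, which encodes proprotein convertase 1, read 12.6 to 25.7 in the ARC, between the PVN at 33.8 to 46.8 and the VMH at 5.70 to 9.23.

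Markers of cell types moved with some of these differences. Of 9 neuron markers, 2 (Snap25 and Nefl) were lower in the ARC than in all 3 nuclei and 0 were higher. Against the VMH, DMH and PVN, 7, 4 and 4 of the 9 were lower and 1, 0 and 0 higher. The 1 higher was Elavl4, with differences of 0.54 (adjusted p = 0.0832 by limma), 0.38 and 0.13. Snap25, the most abundant of the 9, read 315 RPKM in the ARC and 791 in the VMH (means). Of the exon length of Nefl, 32.8% is shared with another gene. The median ARC minus mean-of-others difference of the 9 was -0.53, and their summed RPKM was 790 to 915 in the ARC, 1446 to 1885 in the VMH, 1059 to 1201 in the DMH and 1078 to 1242 in the PVN. Map2, another of the 9, differed by -0.097, 0.096 and 0.053 (adjusted p = 0.701, 0.894 and 1). The part of this in the lower calls was not tested. Of 10 oligodendrocyte markers, 8 were lower than in the VMH, 2 lower than in the DMH and 0 differed from the PVN, with a sum of 96.4 to 219 in the ARC and 268 to 349 in the VMH. Over all genes tested, 3.96% were lower than in the VMH and 1.31% lower than in the DMH. Of 10 astrocyte markers, 1 (Agt) was lower than in all 3 nuclei, and the sum of the 10 in the ARC (412 to 509) overlapped with that in the PVN (457 to 568) and lay below those in the VMH (551 to 662) and the DMH (619.7 to 703.5). Against the VMH, DMH and PVN, 2, 1 and 1 of the 10 were higher and 2, 3 and 2 lower. Gfap was higher than in the VMH and DMH by 1.48 and 1.09 (adjusted p = 0.00186 and 0.0932 by limma). Aqp4 was higher than in the VMH and PVN by 0.90 and 0.88 (adjusted p = 0.0145 and 0.0436 by limma). Over all genes tested, 1.01% to 4.19% were higher than in 1 of these nuclei and 1.31% to 3.96% lower.

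Of 13 tanycyte markers tested (genes of the ependymal cells that line the floor of the third ventricle beside the ARC), 3 were higher in the ARC than in all 3 nuclei and 0 were lower, with a median difference of 0.51. Against the VMH, DMH and PVN, 7, 4 and 5 of the 13 were higher and 1, 1 and 0 lower. Over all genes tested, 1.01% to 4.19% were higher than in 1 of these nuclei and 1.31% to 3.96% lower. Gpr50 was lower than in the DMH by -1.77 and Col25a1 lower than in the VMH by -0.49 (adjusted p = 0.0345 and 0.0638 by limma). Dio2, the deiodinase that activates thyroid hormone, read 3.77, 8.44, 9.07, 16.4 and 5.15 RPKM in the ARC and 0.166 to 4.38 elsewhere, Col23a1 2.83 to 10.5 and 0.508 to 4.08, and Frzb 1.83 to 7.65 and 0.315 to 1.86. Each of the 3 overlapped with the highest of the other libraries. The summed RPKM of the 13 was 58.6 to 104 in the ARC, above the VMH (37.5 to 43.8) and the PVN (46.4 to 55.7), and overlapped with that in the DMH (76.7 to 91.9), where Gpr50 alone read 41.5 to 57.7. ARC library 4 was the highest for Dio2, Col23a1 and Frzb. The part of tanycytes in the higher calls was not tested. Of 10 microglia, 10 endothelial, 5 ependymal, 5 blood and 4 pituitary markers tested, 0 were called against all 3 nuclei in either direction, and 5 endothelial markers were lower than in the PVN. Over all genes tested, 1.96% were lower than in the PVN. The pituitary genes Gh and Prl had no read in any ARC library.

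**Figure D4:**
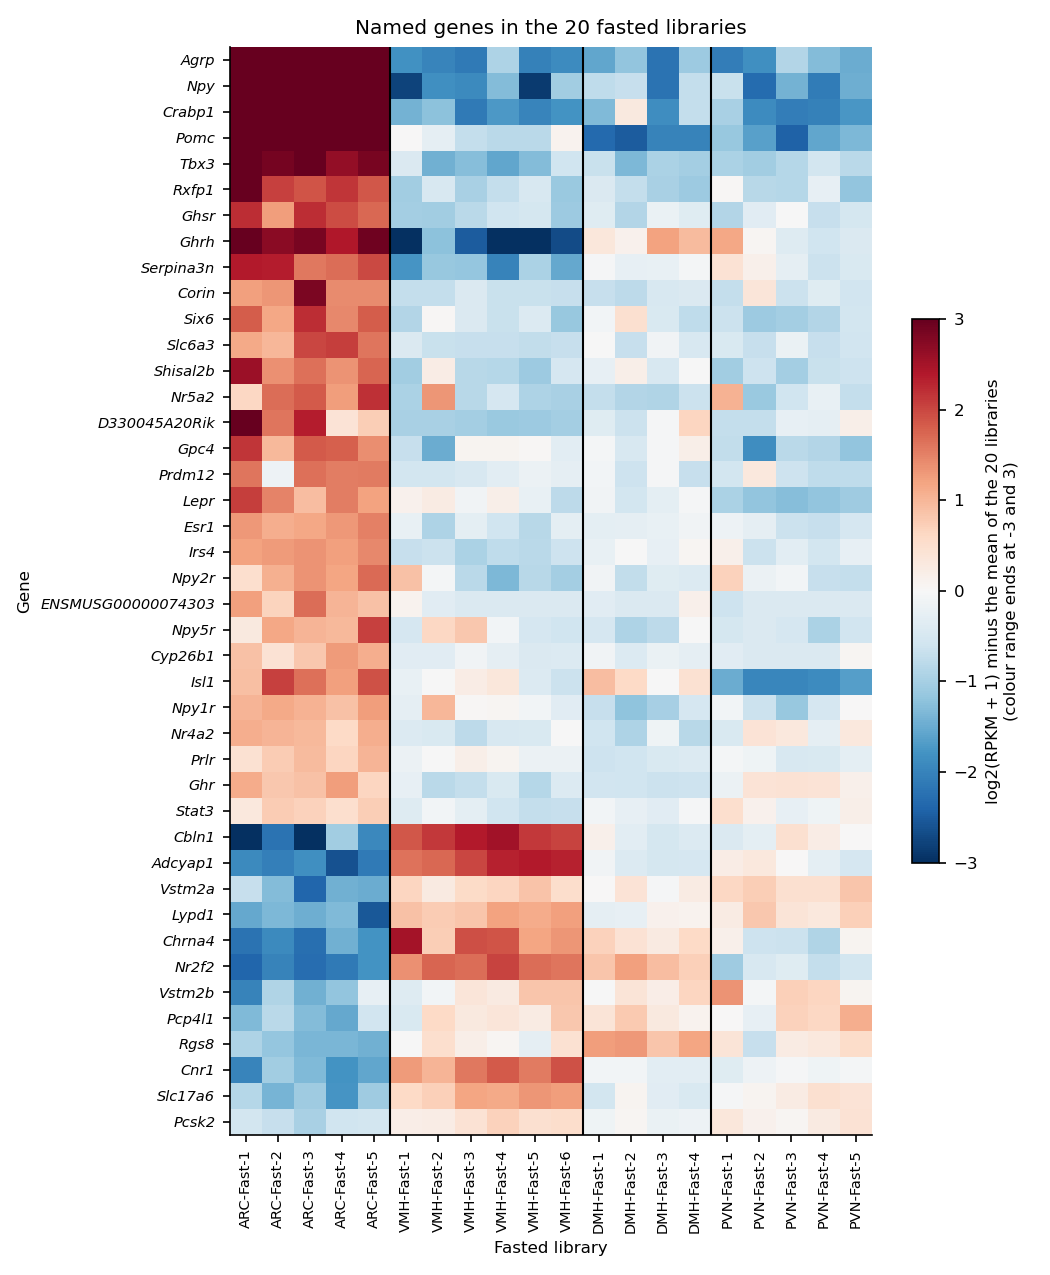
The named genes described in the text (rows) in each of the 20 fasted libraries (columns), as log2(RPKM + 1) minus the mean over the 20 libraries, with red above and blue below that mean and black lines between nuclei. The 5 ARC columns stand apart in nearly all rows, and VMH library 2 is near the ARC for Nr5a2 and Npy1r.

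The same comparison in fed mice, whose 22 libraries did not enter the calls, gave 126 higher (0.39% of the genes tested) and 121 lower genes (0.374%). Batch means had been removed from the deposited values over fasted and fed libraries together, so this check is not wholly separate. Of the 138 genes higher in the fasted ARC, 76 (55.1%) were also called higher in the fed ARC, which is 60.3% of the fed list. Of the 116 lower genes, 59 (50.9%) were also called lower, which is 48.8% of the fed list. The fed margin had the same sign in 133 of 138 higher genes, and 1 (P2rx6) had the opposite sign. It had the same sign in 113 of 116 lower genes, with 0 opposite. Among all genes tested, 19.8% had a positive and 27.3% a negative fed margin. The median fed margin was 0.65 for the higher and -0.52 for the lower genes. In fed mice Agrp had a margin of 4.62, Npy of 5.12, Crabp1 of 5.505, Pomc of 4.71 and Tbx3 of 3.57 (adjusted p for Npy, the largest of these, = 4.22e-07). All 16 leading higher genes (protein-coding, with the largest fasted margins) kept a positive margin in fed mice, and of these Gpc4 did not pass in the fed libraries (1.05, adjusted p = 0.199). Of the leading lower genes described above, Chrna4 was not called in fed mice, where its ARC libraries read 5.67, 6.92, 1.74, 1.85 and 1.42 RPKM and overlapped with those of the PVN (1.03 to 5.83) and the DMH (6.13 to 11.9).

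**Figure D5:**
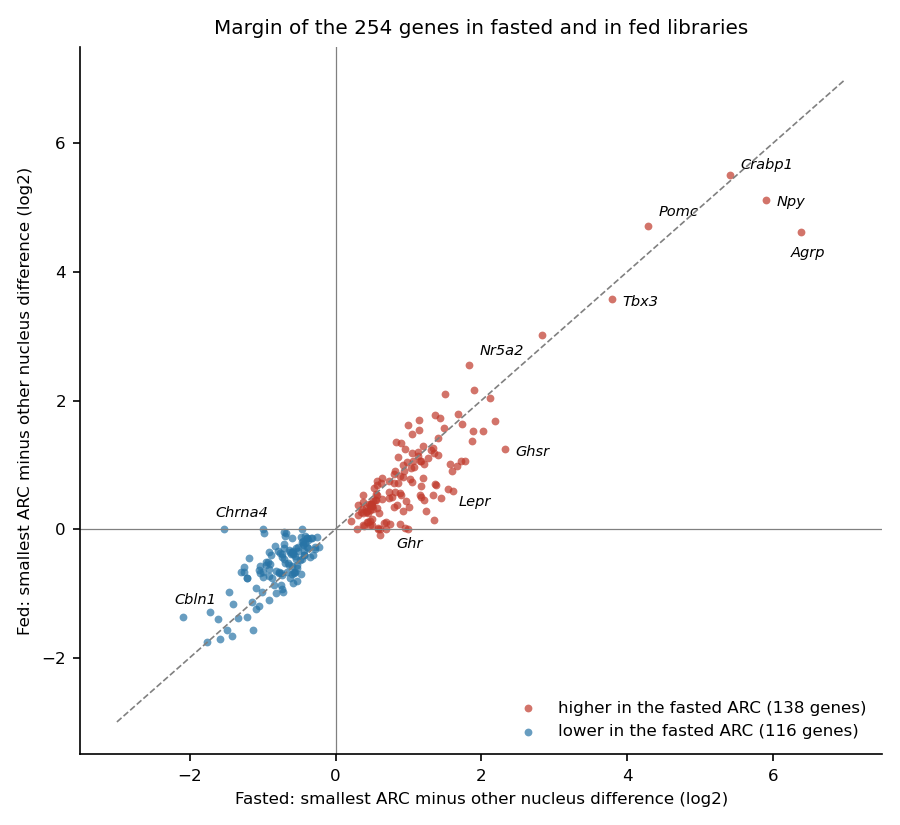
Smallest of the 3 ARC minus other nucleus differences (log2) of each of the 254 called genes in fasted (horizontal) and fed libraries (vertical), with a dashed line of equal values. Most points lie in the quadrant of their fasted sign, Agrp lies below the line (6.38 fasted, 4.62 fed), and Chrna4 and Ghr lie at 0 for fed libraries.

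Whether the margin itself differed between fasted and fed mice was tested over all 42 libraries, as the ARC minus the mean of the 3 other nuclei, fasted minus fed. No gene passed (0 of 32325, 0%, at an adjusted p under 0.1 by limma), and 1381 (4.27%) had an unadjusted p under 0.05. Leaving out any of 8 single libraries let 1 to 6 genes pass, the most without fasted ARC library 5. The 3 smallest p belonged to Lepr, ENSMUSG00000074303 (a gene without a symbol here) and Ghr, with differences of 1.097 ± 0.20, 1.12 ± 0.22 and 0.81 ± 0.17 (adjusted p = 0.128, 0.256 and 0.256). Lepr read 3.36, 2.94, 2.74, 3.32 and 3.52 RPKM in the fed ARC, below every fasted ARC library, and 0.935 to 2.39 in the fed VMH. Its fed margin was 0.62 (adjusted p = 0.0254). Ghr read 9.08, 8.69, 9.496, 13.1 and 12.2 in the fed ARC and 15.6, 18.6, 12.6, 11.5, 9.61 and 12.4 in the fed PVN, so that the highest fed values were those of the PVN. ENSMUSG00000074303 read 5.77, 3.59, 8.21, 4.896 and 4.31 in the fasted and 2.31, 3.81, 1.38, 1.13 and 1.36 in the fed ARC, and 11 of the 15 other fasted libraries had no read of it. Agrp read 179, 157, 109.8, 116 and 105 in the fed ARC, below every fasted ARC library, with a fasted minus fed difference of 1.65 ± 0.38 (adjusted p = 0.419 by limma).

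The libraries fall into 3 batches inferred from the values, of which the first held no fasted DMH library. Within batches 2 and 3, all 138 higher and all 116 lower genes kept their direction against each nucleus. Within batch 1, with 1 ARC library, 133 and 113 did. These libraries also entered the calls, so this is a description. Nr5a2, Stat3 and Npy2r were not above the PVN within batch 1, at -0.43, -0.18 and -0.19. Agrp had a margin of 6.58 in batch 1 (against the VMH and PVN only), 6.13 in batch 2 and 6.46 in batch 3. The genes nearest to the threshold were Nptxr (largest adjusted p = 0.0989) and Clmp (0.0997) just inside and Pcsk1n (0.1) and Enpp5 (0.104) just outside.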

How the data were processed

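RNA of laser-captured ARC, VMH, DMH and PVN from wild-type male C57/BL6 mice was amplified (NuGEN Ovation V2) and sequenced by the authors as single-end reads of 50 bases without strand, and the submitters' processing notes name CASAVA 1.7, TopHat2 2.0.11, Cufflinks 2.2.1, edgeR and limma with the build GRCm38. The authors deposited RPKM values of 37907 genes in 42 libraries. The values show that a count (5 reads in the mean library) had been added and that batch means had been removed. Library depth (1.33 to 13.2 M reads, mean 4.57 M) and 3 batches were inferred from the steps and lowest values of the table, in which 97.7% to 98.8% of the low values were whole reads within 0.02 reads.

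RPKM values are not counts, so limma 3.58.1 (R 4.3.3) was fitted to log2(RPKM + 1) of the 20 fasted libraries with 1 mean per nucleus and a trended variance, after a filter of 1 RPKM in 4 libraries. P-values were Benjamini-Hochberg adjusted over all genes tested, with a threshold of 0.1 in each of the 3 comparisons. The fed libraries were fitted alone on the same genes, and the fasted minus fed difference over all 42. P-values measure the spread between these libraries and do not model the brains that nuclei share. Nor do they allow for the removed batch means, which were taken over all 42 libraries, fasted and fed together. The code was tested on simulated data. No 2 libraries held the same values (correlations of 0.888 to 0.977).

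Named genes are the 16 higher and 10 lower protein-coding genes with a symbol and the largest margins, the 3 with the smallest fasted minus fed p, and called members of the gene lists, of which 1 is not reported here. The members and lists were chosen with earlier results of these data known. The pseudocount, filter, libraries, covariates, weights, scaling, replicate block and call rule were varied, each library was left out in turn, and 0 columns were left unmapped. Promoters are from RefSeq (GRCm38.p6), matched by symbol.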

Additional observations from a re-analysis of the deposited data

Results flagged for a closer look

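Each group of 4 to 6 fasted libraries was searched for 1 library far from the others in the RPKM of each of the 43 named genes. Of 172 such groups 24 held one, and the 24 fell on 14 libraries. Chance alone would give about 1 in 20 (8.6) if the values were normally distributed. RPKM values, some of them at the no-read level, need not be, so no excess over chance is read from this. PVN library 1 and VMH library 2, both of batch 1, were flagged for the most genes. PVN library 1 stood out for Crabp1, Ghrh, Nr5a2 and ENSMUSG00000074303, and VMH library 2 for Ghrh, Shisal2b, Nr5a2 and Npy1r. The other fasted libraries of batch 1 (ARC 1 and VMH 1) were also among the 14. VMH 1 and 2 were the 2 shallowest fasted libraries. No explanation was tested. In each case the margin and its adjusted p (limma) without that library are given.

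Agrp was at 596.9 RPKM in ARC library 4, above the other ARC libraries (341.2 to 403.4), and without it the margin was 6.24 (adjusted p = 5.35e-09). In VMH library 4 it was at 6.169 RPKM, above the other VMH libraries (2.114 to 2.89), and without it the margin was 6.38 (adjusted p = 1.46e-09). Npy was at 5.601 RPKM in DMH library 3, below the other DMH libraries (17.04 to 18.12), and without it the margin was 5.53 (adjusted p = 3.34e-06). Crabp1 was at 4.554 RPKM in PVN library 1, above the other PVN libraries (1.606 to 2.267), and without it the margin was 5.41 (adjusted p = 5.14e-08). Rxfp1 was at 26.58 RPKM in ARC library 1, above the other ARC libraries (10.46 to 12.94), and without it the margin was 2.60 (adjusted p = 5.31e-06). Ghrh was at 71.89 RPKM in PVN library 1, above the other PVN libraries (20.67 to 33.19), and without it the margin was 2.19 (adjusted p = 0.00834). In VMH library 2 it was at 12.96 RPKM, above the other VMH libraries (1.264 to 4.753), and without it the margin was 2.19 (adjusted p = 0.00317). Corin was at 13.68 RPKM in ARC library 3, above the other ARC libraries (3.908 to 4.587), and without it the margin was 1.73 (adjusted p = 1.76e-05).

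In PVN library 2 it was at 1.693 RPKM, above the other PVN libraries (0.2601 to 0.6158), and without it the margin was 2.22 (adjusted p = 6.53e-05). In VMH library 3 it was at 0.5477 RPKM, above the other VMH libraries (0.2601 to 0.3043), and without it the margin was 2.03 (adjusted p = 0.000325). Slc6a3 was at 0.577 RPKM in VMH library 1, above the other VMH libraries (0.2862 to 0.342), and without it the margin was 1.89 (adjusted p = 7.9e-05). Shisal2b was at 21.67 RPKM in ARC library 1, above the other ARC libraries (8.611 to 11.67), and without it the margin was 1.66 (adjusted p = 0.00123). In VMH library 2 it was at 3.444 RPKM, above the other VMH libraries (0.7961 to 1.702), and without it the margin was 1.88 (adjusted p = 0.000159). Nr5a2 was at 4.746 RPKM in PVN library 1, above the other PVN libraries (0.2888 to 1.372), and without it the margin was 1.99 (adjusted p = 0.00807). In VMH library 2 it was at 5.985 RPKM, above the other VMH libraries (0.4125 to 0.9444), and without it the margin was 1.83 (adjusted p = 0.00473). Lypd1 was at 1.908 RPKM in ARC library 5, below the other ARC libraries (4.828 to 5.775), and without it the margin was -1.36 (adjusted p = 7.19e-05).

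ENSMUSG00000074303 was at 2.22 RPKM in DMH library 4, above the other DMH libraries (1.13 to 1.298), and without it the margin was 1.42 (adjusted p = 0.000169). In PVN library 1 it was at 0.8896 RPKM, below the other PVN libraries (1.13 to 1.141), and without it the margin was 1.36 (adjusted p = 0.000429). No fasted PVN library had a read of this gene. The values 0.8896, 1.141 and 1.13 are its no-read values in batches 1, 2 and 3, so this is not a difference in reads. In VMH library 1 ENSMUSG00000074303 was at 2.112 RPKM, above the other VMH libraries (1.13 to 1.283), and without it the margin was 1.36 (adjusted p = 0.000146). Nr4a2 was at 3.272 RPKM in ARC library 4, below the other ARC libraries (4.526 to 4.964), and without it the margin was 0.98 (adjusted p = 0.011). Npy1r was at 25.63 RPKM in VMH library 2, above the other VMH libraries (9.451 to 12.8), and without it the margin was 1.19 (adjusted p = 0.000579). Cyp26b1 was at 0.689 RPKM in PVN library 5, above the other PVN libraries (0.1967 to 0.2958), and without it the margin was 1.14 (adjusted p = 1e-04). Prdm12 was at 1.043 RPKM in ARC library 2, below the other ARC libraries (5.558 to 6.175), and without it the margin was 1.94 (adjusted p = 7.6e-05). In PVN library 2 it was at 1.818 RPKM, above the other PVN libraries (0.3356 to 0.545), and without it the margin was 1.60 (adjusted p = 0.00875).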

How the results depend on the processing

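No margin of a named gene reversed direction under the alternatives in which it was tested. The balance of higher and lower genes turned round with a filter of 5 RPKM (125 higher and 135 lower, beside 138 and 116). The call rules moved the counts most. With an absolute difference of at least 1 (log2), 61 genes were higher and 28 lower, 775, 260 and 472 genes differed from the VMH, DMH and PVN, and 36 higher and 14 lower genes were also called in fed mice. With adjustment of the largest of the 3 p-values these were 69 and 63 genes, and 36 and 23 in fed mice. At an adjusted p under 0.05, 493 genes differed from the DMH, and 50 and 39 genes were also called in fed mice. The fasted minus fed difference, with 0 genes, gave 4 genes with a pseudocount of 5, 2 with no filter, 1 with array weights and 1 with the replicate block. Leaving out each library gave 0 to 6 genes, with 1 to 6 without fasted ARC library 2 (2 genes), 3 (4) or 5 (6), fasted VMH library 2 or 6, or fed ARC library 2, DMH library 4 or VMH library 2 (1 each). Leaving out single libraries gave 105 to 143 higher and 88 to 134 lower genes. With the call rule unchanged and all libraries in, the fewest of the 138 higher and 116 lower genes kept were 87 and 78, under the replicate block.

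Of 27 pairs with the same replicate number in different nuclei, 0 correlated above 0.1 (-0.14 to 0.09). The correlations could not show whether the numbers pair the libraries, because batch and group means had been removed, which lowers correlations within a batch. Within a batch the median correlation was -0.058 for pairs with the same number and -0.035 for those with different numbers. Of the 27 pairs, 12 lay in different inferred batches. The study captured brains batch by batch, so if the inferred batches are those, these 12 pairs are not from 1 brain. With the number as a replicate block, 95 genes were higher and 80 lower, 468 differed from the DMH, and 48 higher genes were also called in fed mice. This block also joined libraries of different inferred batches. Without the 2 shallowest libraries (VMH 1 and 2), an alternative chosen after seeing the data, 151 were higher and 144 lower. Over the alternatives other than the call rules, 33 of the 43 named genes never lost their call where they were tested. The filter of 5 RPKM left Corin, Slc6a3, Nr4a2, Cyp26b1, Npy5r, D330045A20Rik and ENSMUSG00000074303 untested. Six6, Nr5a2 and Prdm12 lost it with a filter of 5 RPKM (adjusted p = 0.449, 0.158 and 0.995), Chrna4 with a pseudocount of 5 (0.107), Isl1 with one of 0.1 (0.106), Stat3 with all 42 libraries (0.213), D330045A20Rik with the batch covariate and with array weights (0.108 each), Vstm2b and Nr5a2 when single libraries were left out (3 and 1), and Isl1, Stat3, Npy2r, Npy5r, Nr5a2 and D330045A20Rik under the block, by limma. The cause was not tested.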
